A study of Mus musculus with 36 samples.

Results

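The genes that encode the proteins of the cytosolic ribosome were followed in RNA precipitated from mouse brain. They were taken by symbol, as every listed gene whose name starts with Rpl or Rps and a number, or is Rplp0, Rplp1 or Rplp2, without the Rps6k kinases. This gave 82 of the 12580 genes listed for steady-state brains and the same number of the 12403 genes listed for Lyve1 mice. By symbol, 49 belong to the large subunit and 32 to the small subunit. The remaining gene, Rps19bp1, encodes a protein that binds Rps19. Within the subunits, 44 large and 29 small subunit genes are core components. There are 5 paralogues by name (Rpl22l1, Rpl36al, Rpl7l1, Rps27l and Rps4l), of which Rps4l is annotated as a transcribed pseudogene. Another 3 genes are annotated or named as pseudogenes or retrogenes (Rpl14-ps1, Rps19-ps3 and Rpl37rt).

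The mice carried Ribo-tag, an allele that adds an HA epitope to the large subunit protein Rpl22 after Cre recombination. Cre was split between a pair of drivers, and all animals had the genotype CX3CR1-CCre+/- and Ribo-tag+/-. The second fragment came from Sall1-NCre+/-, labelled as microglia, or from Lyve1-NCre+/-, labelled as macrophages. Hemibrains were homogenised and precipitated with anti-HA, which takes tagged ribosomes, or with IgG as the control for background RNA, and sequenced from the 3' end by MARS-seq. The groups at steady state were Sall1 HA (n = 6), Sall1 IgG (n = 6), Lyve1 HA (n = 6) and Lyve1 IgG (n = 6). Further Lyve1 HA (n = 4) and Lyve1 IgG (n = 4) groups were taken 12 h after an intraperitoneal injection of LPS at 2.5 mg/kg. LPS is a component of the bacterial outer membrane that activates innate immune cells. The age and sex of the mice are not given in the sources used here. Both precipitates came from each brain, but nothing says which libraries share a brain or whether the libraries of a group are separate animals, so p-values measure the spread between these libraries. Within a group, counts of libraries that share a first number were closer to each other, at a median of 3.53 times the Poisson variance over 16 pairs, against 5.75 times over 56 pairs with different first numbers. Results with counts summed by first number are therefore given too.

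Ribosomal proteins are made in matched amounts, and their mRNAs are among the most abundant in any cell. Most of these mRNAs begin with a C followed by a run of pyrimidines, the terminal oligopyrimidine (TOP) tract. Through this tract their loading onto ribosomes rises and falls with mTOR signalling, so a ribosome pull-down reads their translation together with their abundance. In tissue precipitates, fewer tagged cells and less RNA per cell cannot be told apart.

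Libraries held between 362063 and 1696679 counts. Libraries are named by group and the number pair of their column. The labelled cell types were checked by their markers. In Sall1 HA, 11 of 12 tested microglial markers were higher than in IgG, with a summed level of 2269 to 4404 CPM, counts scaled to a common library size, against 597 to 654 in IgG. In steady-state Lyve1 HA, 3 of 4 tested border macrophage markers, from a list of 10, were higher than in IgG. The listed markers summed to 101 to 231 CPM, against 32.9 to 48.8 in IgG. In the same Lyve1 HA libraries microglial markers summed to 898 to 1498 CPM, against 532 to 805 in IgG, with 6 of 12 tested higher. Fibroblast markers summed to 3095 to 3951 CPM, against 1905 to 2285 in IgG, with 3 of 5 tested higher. Neuronal markers summed to 5124 to 5529 CPM, against 5476 to 7023 in IgG, with 1 higher and 2 lower of 8. The microglial, fibroblast and neuronal sums were all above that of the border macrophage markers. In Sall1 HA, 2 of 5 tested fibroblast markers were higher too. Among the Sall1 libraries whose first number is 3, HA 3-1, HA 3-2 and IgG 3-2 held the highest shares of ribosomal protein counts in their groups, and counts and medians of the Sall1 comparisons are given with and without the first-number-3 libraries.

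The annotated start sites show the TOP feature that the data bear on. Of the 82 genes, 60 have a promoter entry in RefSeq (GRCm38.p6), with 71 starts. A C followed by at least 4 bases that were each C or T, read on the gene's strand with the C within 10 bases of the start, was found at 52.1% of these starts and at 29.7% of all 32851 annotated mouse starts. Of the starts of mitochondrial ribosomal protein genes, 40.0% held such a match. With at least 7 such bases the shares were 32.4% and 7.82%, and for starts of mitochondrial ribosomal protein genes 6.67%. A match describes the letters near an annotated start and is not a mapped transcript end. Of the 60 genes, 35 (58.3%) held a run with at least 4 such bases at a start. The share was 33.3% of all genes with an entry and 43.5% of mitochondrial ribosomal protein genes. Windows of 30 bases before and 20 bases from the start are shown for the tagged protein's gene, its paralogue and 6 other genes. Rpl3 and Rpl7 are not among the genes shown. Each such run is in capitals.
Rpl22, first start, chr4:152324406-152324455, plus strand: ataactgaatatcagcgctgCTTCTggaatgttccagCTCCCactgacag
Rpl22, second start, chr4:152325696-152325745, plus strand: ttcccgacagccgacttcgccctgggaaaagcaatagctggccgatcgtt
Rpl22l1, chr3:28805478-28805527, plus strand: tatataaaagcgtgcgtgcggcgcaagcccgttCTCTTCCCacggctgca
Rpl18, chr7:45718041-45718090, plus strand: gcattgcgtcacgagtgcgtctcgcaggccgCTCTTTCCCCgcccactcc
Rps10, chr17:27635225-27635274, minus strand: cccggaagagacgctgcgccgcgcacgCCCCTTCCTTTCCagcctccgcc
Rplp2, chr7:141447621-141447670, plus strand: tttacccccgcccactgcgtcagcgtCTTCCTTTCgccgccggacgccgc
Rpl13a, chr7:45128726-45128775, minus strand: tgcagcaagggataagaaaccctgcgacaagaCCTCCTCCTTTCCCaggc
Rpl27a, chr7:109519165-109519214, plus strand: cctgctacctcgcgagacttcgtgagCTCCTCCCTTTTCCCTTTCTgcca
Rpl15, chr14:18270967-18271016, minus strand: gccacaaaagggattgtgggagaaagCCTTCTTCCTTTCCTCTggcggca
The second Rpl22 start holds no such run, and the other windows do. The longest is the 20-base run of Rpl27a.

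Together the ribosomal protein genes took 3.79% to 7.87% of the counts of a library. Their share averaged 5.42% ± 1.42 in Sall1 HA and 4.58% ± 0.787 in Sall1 IgG (SD, n = 6 each). It averaged 4.65% ± 0.266 in Lyve1 LPS HA and 4.76% ± 0.131 in Lyve1 LPS IgG (SD, n = 4 each). At steady state it averaged 6.11% ± 1.02 in Lyve1 HA and 4.49% ± 0.242 in Lyve1 IgG (SD, n = 6 each). The lowest Lyve1 HA library, at 4.81%, lay above the highest Lyve1 IgG library, at 4.74%. Sall1 HA and IgG overlapped, and the highest Sall1 HA shares, 7.83% and 6.39%, were those of libraries 3-1 and 3-2. The counts of the large subunit genes were 1.29 to 1.64 times those of the small subunit genes. That ratio was lowest in Sall1 HA 3-2 (1.29) and Sall1 IgG 3-2 (1.32).

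**Figure D1:**
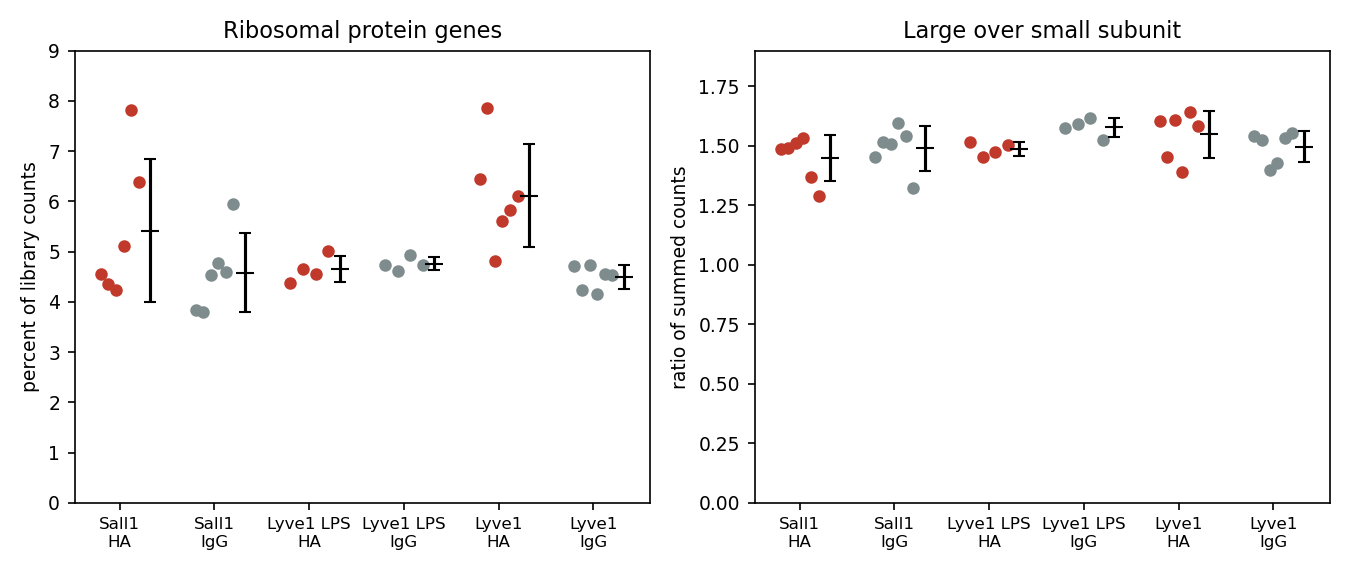
The left panel plots the ribosomal protein genes' percent of library counts and the right panel the ratio of large to small subunit counts, with a point per library and bars for mean and SD. Lyve1 HA libraries at steady state lie above their IgG controls, from 4.81% upward, and the LPS libraries lie between 4.38% and 5.02%.

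Of the 82 genes, 80 passed the filter on low counts in both tables. Rpl21 and Rpl34 did not. Levels below are in CPM and do not compare genes per length. Among the most abundant members, by mean over the steady-state groups, were Rplp1 (a stalk protein), Rpl13a, Rps10, Rpl41, Rps14, Rpl8, Rps15, Rpl14 and Rps19. Reads of near copies and processed pseudogenes cannot be assigned with certainty, since how such reads were handled is not given in the sources used here.

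Rpl22 encodes the tagged protein, a large subunit component that mice can live without. It measured 55.2, 67.6 and 83.6 CPM (lowest, median, highest) in Sall1 HA, against 54.9, 66.0 and 70.8 in Sall1 IgG. In steady-state Lyve1 HA it measured 62.7, 72.8 and 80.9 CPM, against 55.8, 61.8 and 74.6 in Lyve1 IgG. The HA and IgG groups overlapped in both lines. The log2 ratio was 0.07 ± 0.13 in Sall1 (SE, adjusted p = 0.807) and 0.19 ± 0.13 in Lyve1 (adjusted p = 0.29), by edgeR's quasi-likelihood test. A 3' count does not separate the tagged from the untagged allele. After LPS it was 69.6, 69.0, 62.2 and 51.7 CPM in HA, against 87.5, 100.1, 61.9 and 88.6 in IgG (log2 -0.39, adjusted p = 0.161). Its paralogue Rpl22l1 was more variable, at 24.04, 43.6 and 114 CPM in Lyve1 HA, against 14.3, 26.9 and 54.5 in Lyve1 IgG (log2 0.93 ± 0.41, adjusted p = 0.0962). Neither gene passed the test in any comparison made here. Over the 24 steady-state libraries, which differ in depth, line and antibody, the members whose log2 CPM ran closest to that of Rpl22 were Rpl15 (Pearson r = 0.69), Rpl3 (0.59) and Rpl22l1 (0.52), given as a description.

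**Figure D2:**
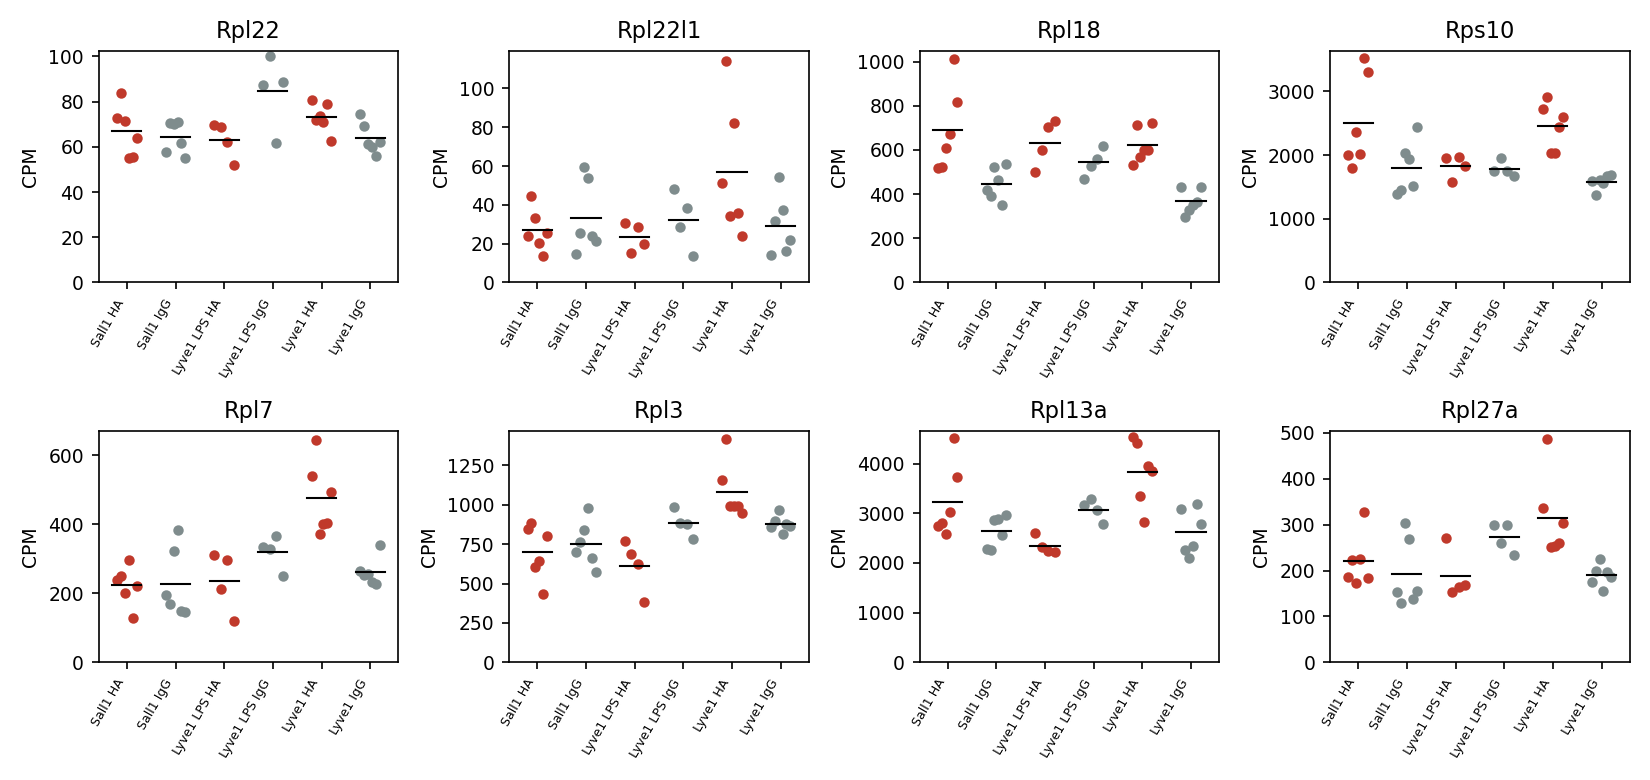
CPM of 8 genes in every library, with a line at the group mean and HA groups in red left of their IgG groups in grey. Rpl22 stays within 51.7 to 100.1 CPM, while Rpl7 and Rpl3 are highest in steady-state Lyve1 HA.

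The first question was which transcripts are bound to tagged ribosomes above background. In Lyve1 mice at steady state, 28 of the 80 genes were higher in HA than in IgG and 0 were lower, by edgeR's quasi-likelihood test with Benjamini-Hochberg adjustment over all 9619 genes tested (adjusted p under 0.05). Over all genes, 11.7% were higher and 14% lower. Abundant genes passed more often: of the 1264 other genes at or above the lower quartile of the members' mean CPM, 25% (316) were higher, against 35% of the ribosomal protein genes, and 318 were lower. The median of those abundant genes was -0.01. The median log2 ratio was 0.54 for the ribosomal protein genes and 0.01 for all genes. The large subunit had 18 of 47 higher (median 0.55) and the small subunit 9 of 32 (median 0.47), and Rps19bp1 made up the rest. All HA libraries lay above all IgG libraries for 13 of the 80 genes, against 5.17% of all genes, and below them for 0, against 8.43%. Of the 1264 other abundant genes, 173 lay above and 240 below in this way.

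Rpl18, a large subunit protein, measured 533, 599 and 722 CPM in Lyve1 HA, against 294, 359 and 433 in Lyve1 IgG, a log2 ratio of 0.76 ± 0.15 (adjusted p = 0.000367). Every HA library lay above every IgG library. Rps10, a small subunit protein, measured 2032, 2513 and 2913 CPM in HA, against 1367, 1604 and 1681 in IgG (log2 0.63 ± 0.15, adjusted p = 0.00288), again without overlap. Rpl7, a large subunit protein, measured 371, 448 and 646 CPM in HA, against 227, 255 and 340 in IgG (log2 0.85 ± 0.21, adjusted p = 0.00406). The stalk protein gene Rplp2 rose by 0.77 with overlap of the groups. Others that rose were Rpl10a (0.86), Rpl36 (0.82), Rpl12 (0.54) and Rps13 (0.50), the paralogue Rpl36al (0.74), and Rps4l (0.67), which is annotated as a transcribed pseudogene. Over the 80 genes the log2 ratio ran from -0.38 for Rps15a (adjusted p = 0.335) to 1.46 for Rpl39 (adjusted p = 0.109), neither of which passed. The largest ratio among genes that passed was that of Rps4x (1.45 ± 0.39), a low gene at 80.6, 132 and 183 CPM in HA, against 27.9, 41.1 and 95.1 in IgG.

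The same question was asked in Sall1 mice. In Sall1 HA, 9 of 80 genes were higher than in Sall1 IgG and 0 were lower, against 4.81% and 4.99% of all genes. The share that was higher, 11.25%, was near the 11% (139 of 1264) of the other abundant genes, of which 147 were lower. The median log2 ratio was 0.27 for the ribosomal protein genes and -0.01 for all genes, with 4 of 47 large and 4 of 32 small subunit genes higher. The genes were Rpl18 (0.63 ± 0.15, adjusted p = 0.0051), Rps9 (0.61), Rps13 (0.51), Rpl29 (0.68), Rpl36 (0.66), Rps19bp1 (0.58), Rpl11 (0.36), Rps10 (0.48) and Rps27l (0.66). HA and IgG overlapped for all 80, and were apart upward for 2.47% and downward for 1.11% of all genes. Rpl18 measured 517, 640 and 1013 CPM in Sall1 HA, against 352, 441 and 537 in Sall1 IgG.

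The Sall1 count changed with the libraries used. It was 5 without Sall1 HA 3-1 or 3-2 and 4 without Sall1 IgG 1-1 or 1-2. With the first-number-3 libraries left out, 4 genes passed: Rps19bp1 (0.88), Rpl29 (0.54) and Rps13 (0.44) were higher, and Rpl14-ps1 (-1.65) was lower. With those libraries alone kept in Sall1, 2 genes passed, Rpl18 (1.05) and Rps9 (0.89). Shares over all genes are not given for these subset fits. The median was 0.09 without the first-number-3 libraries and 0.54 with those alone. With counts summed over libraries that share a first number, the count was 0 in Sall1 and 6 in Lyve1.

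**Figure D3:**
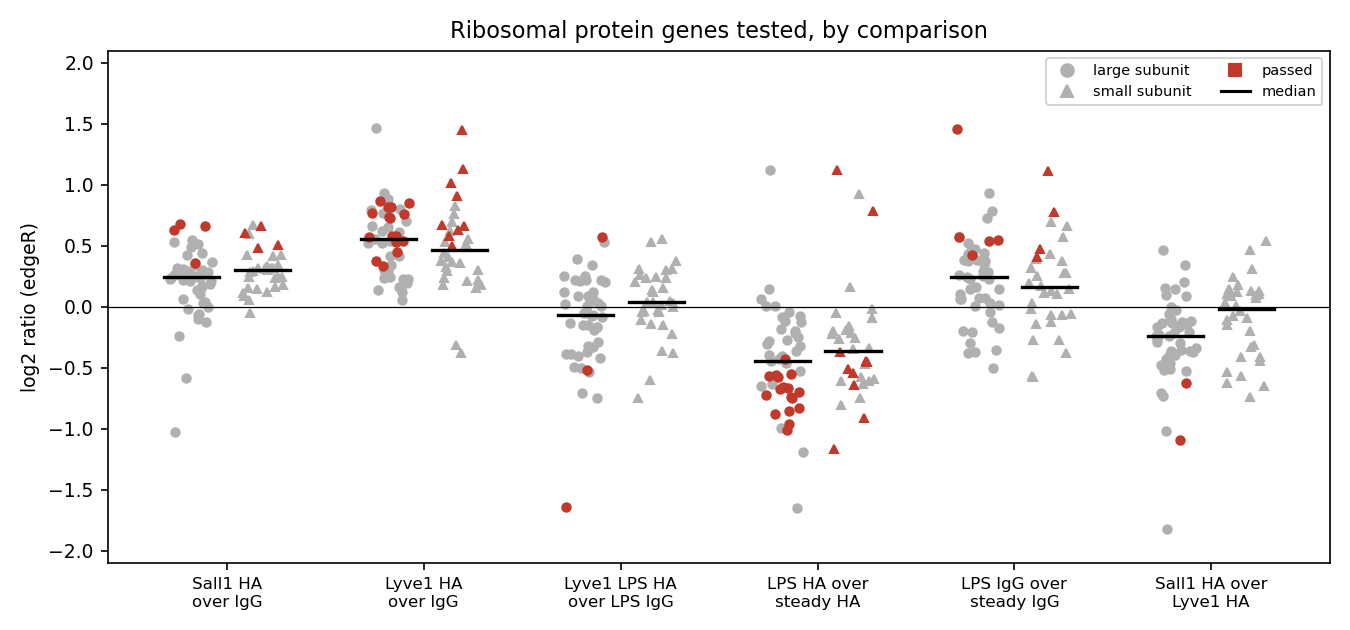
Log2 ratios of the tested genes in 6 comparisons, with large subunit genes as circles, small subunit genes as triangles, genes that passed in red and a line at the median. Lyve1 HA over IgG sits highest (medians 0.55 and 0.47), and LPS HA over steady-state HA lowest (-0.44 and -0.36).

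HA precipitates of the lines were set against each other next. In Sall1 HA, 0 of 80 genes were higher and 2 lower than in Lyve1 HA, against 1.24% and 0.166% of all genes. Rpl7 measured 130, 230 and 296 CPM in Sall1 HA, against 371, 448 and 646 in Lyve1 HA (log2 -1.09 ± 0.21, adjusted p = 0.00389). Rpl3, a core protein close to the peptidyl transferase centre, measured 435, 721 and 886 CPM in Sall1 HA, against 948, 992 and 1419 in Lyve1 HA (log2 -0.62 ± 0.15, adjusted p = 0.0173). Neither pair of groups overlapped, as for 0.322% of all genes. The other 78 did not pass. The median was -0.16 with all libraries, -0.46 without the first-number-3 libraries and 0.24 with those alone in Sall1, so its sign turned with the libraries used.

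The count changed with the Sall1 libraries used. Rpl7 and Rpl3 passed in both subsets. These subsets make up the full Sall1 set and share the same Lyve1 HA libraries, so they are not independent of the full result. Without the first-number-3 libraries, 9 genes were lower, among them Rpl9, Rpl35a, Rpl31, Rpl23, Rpl7, Rpl37a, Rpl17 and Rpl3. With only those libraries, 8 were higher and 2 lower. Shares over all genes are not given for these subset fits, so the counts cannot be set against all genes. Summed over libraries that share a first number, neither Rpl7 nor Rpl3 passed. The count was 1 gene without Lyve1 HA 1-1, Lyve1 HA 1-2, Sall1 HA 2-1 or Sall1 HA 2-2, and 4 genes without Sall1 HA 3-1.

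IgG libraries of the lines gave 0 of 80 genes, with 0 of all 9619 passing in edgeR. At an unadjusted p under 0.05 there were 644 genes in all and 1 ribosomal protein gene, and DESeq2 called 12 genes, none of them ribosomal. The enrichment in Sall1 minus that in Lyve1, an interaction term, gave 0 of 80 genes (0.218% of all genes), with 5 at an unadjusted p under 0.05. The interaction median was -0.20 with all libraries, -0.38 without the first-number-3 libraries and 0.08 with those alone in Sall1. The smallest p was that of Rpl7 (-0.87 ± 0.30, adjusted p = 0.613).

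HA precipitates of Lyve1 mice were compared between LPS and steady state. In LPS HA, 25 of 80 genes were lower than in steady-state HA and 2 were higher, against 8% and 9.46% of all 9680 genes. Of 1173 other genes chosen by the same abundance bound in this table, 170 were lower and 78 higher. The median log2 ratio was -0.43 for the ribosomal protein genes and -0.02 for all genes. Of the large subunit, 17 of 47 were lower, and of the small subunit 8 of 32 were lower and 2 higher. All LPS libraries lay below all steady-state libraries for 9 genes, against 4.33% of all genes, and above them for 1 gene, Rps27l, against 6.33%. Of the 1173 other abundant genes, 101 lay below and 52 above in this way. These comparisons and the steady-state enrichment share the steady-state Lyve1 libraries.

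Rpl3 measured 767, 684, 621 and 380 CPM in LPS HA, against 955, 1005 and 1447 in steady-state HA (log2 -0.83 ± 0.14, adjusted p = 6.71e-05). Every LPS library was lower than every steady-state library. Rpl13a, a protein also known to silence inflammatory mRNAs when released from the ribosome, measured 2596, 2314, 2236 and 2228 CPM in LPS HA, against 2849, 3936 and 4589 in steady-state HA (-0.72 ± 0.13, adjusted p = 0.00015). Rpl7 measured 312, 213, 297 and 120 CPM in LPS HA, against 377, 453 and 659 in steady-state HA (-1.01 ± 0.20, adjusted p = 0.000627). All 3 sets were free of overlap. Rpl17 (-0.70), Rpl9 (-0.58), Rpl23 (-0.74) and Rpl27a (-0.75) also fell. In the other direction, Rps15a rose by 1.13 ± 0.23 (adjusted p = 0.000653), at 32.3, 61.9, 42.4 and 57.8 CPM in LPS HA, against 14.97, 20.8 and 32.9 in steady-state HA. The paralogue Rps27l, a p53 target, rose by 0.79 (adjusted p = 0.0142). The count of 27 was 14 without LPS HA 1-2 and 16 without LPS HA 2-1.

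IgG libraries were compared in the same way. In LPS IgG, 9 of 80 genes were higher and 0 lower than in steady-state IgG, against 6.92% and 6.44% of all genes, with a median of 0.21. The share that was higher, 11.25%, was near the 10.4% (122 of 1173) of the other abundant genes, of which 210 were lower (median -0.09). They were Rpl18 (0.57), Rplp2 (0.55), Rpl12 (0.42), Rps4x (1.11), Rps13 (0.47), Rpl27a (0.54), Rpl14-ps1 (1.46), Rps27l (0.78) and Rps9 (0.41). The groups were apart upward for 6 genes, against 6.38% of all genes, and downward for 0, against 6.93%. Of the 1173 other abundant genes, 119 were apart upward and 226 downward. The count of 9 genes that passed was 1 without LPS IgG 2-1, and 5 without steady-state IgG 1-2 or 2-2.

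HA and IgG were then compared after LPS. In LPS HA, 1 of 80 genes was higher and 2 lower than in LPS IgG, against 5.22% and 4.4% of all genes, with a median of 0.0001. Rpl27 was higher (0.57, adjusted p = 0.044), and Rpl3 (-0.52, adjusted p = 0.027) and Rpl14-ps1 (-1.64, adjusted p = 0.0493) were lower. The groups were apart upward for 4 genes, against 8.02% of all genes, and downward for 3, against 7.22%. The count of 3 was 0 without LPS HA 2-2, LPS IgG 1-2 or LPS IgG 2-1, 1 without LPS HA 1-2 or LPS IgG 1-1, and 5 without LPS HA 1-1.

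The difference between the enrichments was tested as an interaction, LPS enrichment minus steady-state enrichment. Here 16 of 80 genes were lower and 0 higher, against 1.59% and 1.64% of all genes, with a median of -0.55. Of the 1173 other abundant genes, 43 were lower and 53 higher. The large subunit had 12 of 47 and the small subunit 4 of 32. Of the 80 genes, 72 had a lower enrichment after LPS, and 78 had a ratio above 0 at steady state against 40 after LPS. Over all genes, 4795 of 9680 had a higher enrichment after LPS, and 4846 of 9680 had a ratio above 0 after LPS. At steady state, in the fit of the steady-state table, 4894 of 9619 had a ratio above 0. Rpl27a had the smallest p (-1.29 ± 0.24, adjusted p = 0.00287): it measured 270.0, 154, 163 and 167 CPM in LPS HA, against 299, 260, 300.1 and 235 in LPS IgG, and 254, 285 and 497 in steady-state HA, against 158, 189 and 226 in steady-state IgG. HA was the lower group after LPS and the higher at steady state, with overlap in LPS only through library LPS HA 1-1. Rpl13a (-0.95), Rpl17 (-0.95), Rpl7 (-1.30), Rplp2 (-0.94), Rpl3 (-0.85), Rpl12 (-0.73) and Rps4x (-1.86) followed. Rpl22 had -0.60 (adjusted p = 0.117). The count was 7 with counts summed by first number and 7 without LPS HA 1-2. It was 8 without LPS IgG 2-1, 9 without LPS IgG 1-1, and 10 without LPS IgG 1-2, steady-state HA 1-1 or steady-state IgG 2-2. In simulated data, 16.7% of this test's calls were false (4 calls). There it recovered 20.2% of log2 changes of 1 and 0% of those of 0.5.

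**Figure D4:**
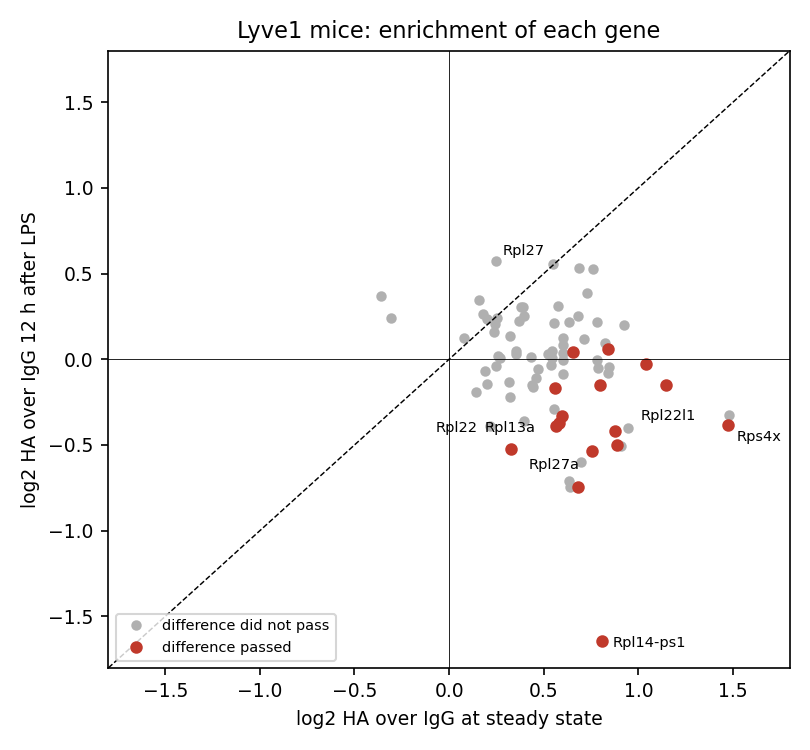
Log2 HA over IgG of each gene after LPS against that at steady state in Lyve1 mice, from 1 fit; the dashed line marks equal ratios and red marks genes whose difference passed. Of 80 genes, 72 lie below the line. Over all genes, which are not plotted, 4795 of 9680 had a higher ratio after LPS.

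Other genes of translation were set beside these. Other TOP mRNAs, such as elongation factors, had 0 higher and 7 lower of 20 in the LPS interaction (median -0.66). Mitochondrial ribosomal protein genes had 0 higher and 1 lower of 67 (median -0.11), and respiratory chain and ATP synthase genes 2 higher and 2 lower of 72 (median -0.13). In LPS HA over steady-state HA itself, respiratory chain and ATP synthase genes had 0 higher and 21 lower of 72 (median -0.30), mitochondrial ribosomal protein genes 0 higher and 9 lower of 67 (median -0.22), and other TOP mRNAs 3 higher and 6 lower of 20 (median -0.28). In LPS IgG over steady-state IgG, other TOP mRNAs had 6 higher and 0 lower of 20 (median 0.36). Mitochondrial ribosomal protein genes had 1 higher and 3 lower of 67 there (median -0.09). Respiratory chain and ATP synthase genes had 0 higher and 10 lower of 72 (median -0.19). At steady state, in Lyve1 HA over IgG, mitochondrial ribosomal protein genes had 30 higher and 5 lower of 67. Respiratory chain genes had 52 higher and 5 lower of 72, and other TOP mRNAs 6 higher and 2 lower of 19 (median 0.21). Ribosome assembly genes, such as nucleolar factors, had 5 higher and 2 lower of 22.

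Markers of other cells moved with LPS as well. Summed endothelial markers were 233 to 292 CPM in LPS HA, against 54.5 to 98.9 in steady-state HA, with 3 of 4 tested higher. Astrocyte markers were 1337 to 1588 CPM, against 537 to 899, with 2 of 6 tested higher (median log2 0.21). Neutrophil and monocyte markers were 38.0 to 160 CPM, against 8.65 to 73.0, with 1 of 3 tested higher. Microglial markers were 1813 to 2338 CPM, against 914 to 1511, with 3 of 10 tested higher (median log2 0.40). Border macrophage markers were 116.8 to 179.6 CPM, against 102.5 to 233.4, with 0 higher and 0 lower of 6. Oligodendrocyte markers went down, with 0 higher and 3 lower of 6 in LPS HA over steady-state HA (median log2 -0.45). Neuronal markers were 3723 to 5273 CPM, against 5185 to 5609, with 0 higher and 0 lower of 8. In IgG, astrocyte markers were 1480 to 1733 CPM after LPS, against 545 to 805, with 1 of 6 tested higher. Endothelial markers in IgG were 134 to 150 CPM after LPS, against 45.4 to 73.2, with 2 of 4 tested higher. Microglial markers in IgG were 763 to 995 CPM after LPS, against 524 to 802, with 3 higher and 2 lower of 10 (median -0.01). Oligodendrocyte markers in IgG had 0 higher and 3 lower of 6 (median -0.40). The part of all these marker changes in the ribosomal protein results was not tested.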

How the data were processed

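RNA from anti-HA and IgG precipitates of mouse hemibrains was sequenced by MARS-seq, per the labels' protocols. The deposited tables give raw counts, whole numbers for each gene in each library. Per the submitters' processing notes, the genome build was mm9. Which aligner and counter were used is not given in the sources used here. The steady-state table (24 libraries) and the Lyve1 table (20 libraries) share 12 libraries and were scaled separately. Another 28 library columns match no sample and were not used, and the 4 LPS-treated Sall1 samples were not analysed here.

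Counts were filtered with filterByExpr (minimum count 10, minimum total 15), which kept 9619 and 9680 genes and 99.04% of the counts, and then scaled by TMM. The robust quasi-likelihood fit of edgeR 4.0.16 in R 4.3.3 took the 4 groups of a table together. A gene passed at a Benjamini-Hochberg adjusted p under 0.05 over all genes tested. Standard errors are the log2 ratio over the square root of F. The scripts were tested on simulated data. In Lyve1 HA over IgG, 77.1% of simulated log2 changes of 1 and 14.9% of those of 0.5 were recovered. In LPS HA over steady-state HA the shares were 60.6% and 10.4%, and in the LPS enrichment 20.2% and 0%. False calls made up 2.2%, 1.4% and 16.7% of the calls in these comparisons. Alternatives were other scalings, no filter, DESeq2 1.42.0, a replicate block, only the groups compared, summed libraries and left-out libraries. Genes were named by a fixed rule: up to 8 per direction with the smallest p, the extreme ratios, Rpl22, its paralogues and the most abundant genes. Values of some genes that the rule names are not reported here. The other abundant genes, with an average log CPM at or above the members' lower quartile, are a description added after the data were seen. The members and lists were chosen with earlier results of these data known. Planned classes by protein length were not run, since no protein table was used here. Promoter windows come from RefSeq on GRCm38.p6, a later build than that of the counts.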

Additional observations from a re-analysis of the deposited data

Results flagged for a closer look

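A library stood apart in 12 of 162 groups of values examined (7.41%, where chance gives about 1 in 20). In Sall1 IgG 3-2 these were Rpl11 (716 CPM), Rpl36 (1478 CPM), Rpl9 (1405 CPM) and Rps13 (631.5 CPM), and in Sall1 HA 3-1 Rpl23 (1123 CPM) and Rpl27a (328.7 CPM). In Lyve1 IgG 3-2 they were Rpl7 (340.3 CPM) and Rps4x (95.13 CPM). Rpl27a also stood apart in Lyve1 HA 1-2 (487.2 CPM) and Lyve1 LPS HA 1-1 (270.0 CPM), and Rps19bp1 in Lyve1 HA 2-2 (56.69 CPM) and Sall1 HA 1-2 (135.5 CPM).

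The HA to IgG log2 ratio differed between LPS and steady state in Lyve1 mice, by edgeR's interaction test, for 16 genes. The differences were -1.29 for Rpl27a, -0.95 for Rpl13a, -0.95 for Rpl17, -1.30 for Rpl7, -0.94 for Rplp2, -0.85 for Rpl3, -0.73 for Rpl12, -1.86 for Rps4x, -1.43 for Rpl15 and -1.07 for Rps24. They were -0.62 for Rps10, -1.30 for Rps25, -1.38 for Rpl10a, -0.78 for Rpl36, -0.93 for Rpl10 and -2.45 for Rpl14-ps1.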

How the results depend on the processing

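Over all comparisons ribosomal protein genes passed 94 times, and 0 of these ratios changed direction under the alternatives run. Of the 94, 56 no longer passed with counts summed over libraries of the same first number, 13 with no filter on low counts, 8 with the replicate block, 4 with library totals, 2 with DESeq2 size factors, and 0 with DESeq2's own test or with TMM without ribosomal protein genes. Of 78 refitted on only the groups compared 18 were lost, and of 39 in steady-state comparisons 6 were lost without the Sall1 first-number-3 libraries and 8 with those alone. Leaving out 1 library lost 273 of 1172. With counts summed over libraries of the same first number there were 0 ribosomal protein genes for Sall1 HA over IgG, 6 for Lyve1 HA over IgG, 0 for Sall1 HA over Lyve1 HA, 1 for LPS HA over LPS IgG and 7 for the LPS enrichment; this alternative has fewer libraries. Fitting only the groups compared gave 3, 51 and 1 for the first 3 of these. Leaving out Sall1 libraries with first number 3 gave 4, 48 and 9. Leaving out those with first numbers 1 and 2 gave 2 for Sall1 HA over IgG and 10 for Sall1 HA over Lyve1 HA. Shares over all genes are not given for the alternatives, so a higher or lower count is not a result about the ribosomal protein genes alone. Deviations of same-numbered HA and IgG libraries from their group means had r from -0.099 to 0.345. It was above 0 in all pairs but Sall1 1-2 (-0.013) and Lyve1 LPS 1-2 (-0.099). The main tests did not pair HA with IgG libraries. The replicate block gave 15 for LPS IgG over steady-state IgG and changed no other count by more than 1.5 times. The cause of the other moves was not tested.

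Leaving out each library gave 4 to 11 genes for Sall1 HA over IgG, 21 to 36 for Lyve1 HA over IgG, 1 to 4 for Sall1 HA over Lyve1 HA, 0 to 5 for LPS HA over LPS IgG, 14 to 35 for LPS HA over steady-state HA, 1 to 10 for LPS IgG over steady-state IgG and 7 to 20 for the LPS enrichment. The median log2 ratio over all alternatives ran from 0.46 to 0.62 for Lyve1 HA over IgG, from -0.48 to -0.33 for LPS HA over steady-state HA, from -0.58 to -0.46 for the LPS enrichment and from 0.08 to 0.54 for Sall1 HA over IgG. It took both signs for Sall1 HA over Lyve1 HA (-0.46 to 0.24), Sall1 IgG over Lyve1 IgG (-0.08 to 0.23), the Sall1 minus Lyve1 enrichment (-0.39 to 0.08) and LPS HA over LPS IgG (-0.11 to 0.05), and ran from 0.15 to 0.24 for LPS IgG over steady-state IgG. Low counts of Rpl21 and Rpl34 kept them out of the tests.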

Other observations

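Genes were also grouped by the length of their locus, a grouping chosen after the data were seen. Outside the ribosomal protein genes, the 1062 tested genes of up to 5 kb had a median log2 ratio of 0.31 in Lyve1 HA over IgG, and those over 100 kb had -0.21. Of the ribosomal protein genes, 66 span up to 5 kb (median 0.55) and 14 span 5 to 20 kb (median 0.39). Among the other genes of up to 5 kb, 28.15% were higher, against 35% of the ribosomal protein genes of any length. In Sall1 HA over IgG, the other genes of up to 5 kb had a median of 0.22, and the ribosomal protein genes of that length 0.27. There 14.31% of the other short genes were higher, against 11.25% of the ribosomal protein genes of any length. In the LPS enrichment minus steady-state enrichment, the other genes of up to 5 kb had a median of -0.11, and the ribosomal protein genes of that length -0.57. The part of locus length in these results was not tested.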
